A study of Mus musculus with 17 samples.

Results

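Macrophages at the borders of the brain and inside it digest, oxidise and scavenge material. Here 9 genes linked to macrophages were followed in the hippocampus of mice with a duplicated segment of chromosome 16. Lyz2, Cybb, Fgl2 and Gpnmb were chosen because they had been seen higher with the duplication in these same libraries. Mrc1, Cd163, Pf4, Ms4a7 and Lyve1 were chosen as markers of border-associated macrophages. All 9 were found among the 55385 genes of the deposited tables, and all 9 passed the filter on low counts, which left 18983 genes to test.

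Border-associated macrophages live in the meninges, the perivascular spaces and the choroid plexus, outside the nervous tissue proper. Microglia live within it and hold little Mrc1 or Lyve1. Lysozyme and the phagocyte oxidase are used by macrophages, monocytes and neutrophils alike, so their RNA in a whole piece of tissue can come from several cell types.

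Polyadenylated RNA was sequenced from the hippocampus of 17 mice, 1 library per mouse, at 17.1 to 18 weeks of age. Dp16_2xIFNRs mice (n = 5, 3 females and 2 males) carried the Dp16 duplication but had the interferon receptor genes brought back to the normal dosage. Dp16 mice (n = 6, 3 females and 3 males) carried the duplication, a mouse model of Down syndrome, with the receptor genes included. WT mice (n = 6, 3 females and 3 males) were C57BL/6J. No mouse was treated, and the duplication is present in every cell of the body, not in a chosen cell type. The mice carry different identifiers, and the labels do not say which were littermates. In 5 pairs, each of 2 genotypes, both mice have the same second part of the identifier, whose meaning the labels do not give. The WT and Dp16 libraries enter more than one comparison, so the comparisons with WT share their 6 WT libraries.

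Libraries held 30.4 to 33.1 M counts (M, mega) over all genes, and genes of hippocampal neurons were high in every one of them. Prox1, of dentate granule cells, lay at 8.75 to 13.3 RPKM (reads per kilobase and per megaread), and Fibcd1, of CA1 neurons, at 14.5 to 31.2 RPKM. In 3 libraries, Dp16_2xIFNRs replicate 5, Dp16 replicate 6 and WT replicate 6, the summed level of 15 choroid plexus genes was 1.58 to 2.71% of the median library. The fold changes of the 9 genes were also computed without them. In whole tissue, more cells of a type and more RNA per cell cannot be told apart.

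None of the 9 genes lies on chromosome 16. Lyz2 is at chr10:117277331-117282321 on the minus strand (GRCm38). Cybb is on the X chromosome, at chrX:9435252-9487771 on the minus strand. Fgl2 is at chr5:21372642-21378374 on the plus strand, and Gpnmb at chr6:49036546-49070929 on the plus strand. Fgl2 lies inside Ccdc146, a gene of the other strand with 20 to 127 counts per library, and shares 0 exon bases with it. Lyz2 has a close copy, Lyz1, which held 0 to 3 counts in every library. Of 1267 stretches of 50 bases in the Lyz2 transcript, 195 (15.39%) stand whole in Lyz1, and 0 stretches of 150 bases do.

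The promoters of the 4 genes chosen for being higher in the duplication genotypes are shown as a description only. They are from RefSeq (GRCm38.p6), 300 bases that end 50 bases after the start site, read 5′ to 3′ on the gene's own strand. Motif matches are in capitals: the interferon-stimulated response element (ISRE, GAAA then NN then GAAA) and the interferon gamma-activated site (GAS, TTCNNNGAA), searched on both strands.
Lyz2, chr10:117282223-117282522, minus strand: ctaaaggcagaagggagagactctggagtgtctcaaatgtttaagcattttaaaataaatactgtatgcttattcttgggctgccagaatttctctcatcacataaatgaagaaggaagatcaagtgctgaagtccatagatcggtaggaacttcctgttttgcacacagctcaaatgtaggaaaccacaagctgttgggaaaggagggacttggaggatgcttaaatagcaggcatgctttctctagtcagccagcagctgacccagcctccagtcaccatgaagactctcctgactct
Cybb, chrX:9469275-9469574, minus strand: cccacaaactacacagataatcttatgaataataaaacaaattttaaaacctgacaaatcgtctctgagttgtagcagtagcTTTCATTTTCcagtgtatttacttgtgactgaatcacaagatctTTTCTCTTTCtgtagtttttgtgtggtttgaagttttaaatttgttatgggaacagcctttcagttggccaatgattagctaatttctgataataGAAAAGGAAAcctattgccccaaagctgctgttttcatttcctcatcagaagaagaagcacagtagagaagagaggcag
Fgl2, chr5:21372423-21372722, plus strand: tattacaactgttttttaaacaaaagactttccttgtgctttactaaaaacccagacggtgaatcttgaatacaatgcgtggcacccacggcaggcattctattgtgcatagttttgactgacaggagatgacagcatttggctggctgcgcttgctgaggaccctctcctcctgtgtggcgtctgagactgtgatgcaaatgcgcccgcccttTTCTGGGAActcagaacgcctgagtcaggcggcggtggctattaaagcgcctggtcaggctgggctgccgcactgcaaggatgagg
Gpnmb, chr6:49036268-49036567, plus strand: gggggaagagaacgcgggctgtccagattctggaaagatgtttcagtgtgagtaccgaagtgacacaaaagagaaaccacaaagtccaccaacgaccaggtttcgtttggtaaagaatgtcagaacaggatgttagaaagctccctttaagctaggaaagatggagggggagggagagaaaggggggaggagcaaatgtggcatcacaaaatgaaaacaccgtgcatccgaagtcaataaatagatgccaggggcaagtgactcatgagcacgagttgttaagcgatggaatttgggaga

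The Cybb promoter holds 3 ISRE matches that do not overlap, at -168, -124 and -29 bases from the RefSeq start site. At least 1 is held by 3.44% of 32851 mouse promoters of the same length. This Cybb window lies inside the gene span given above, since GENCODE places the upstream end of the gene at chrX:9487771. The Fgl2 promoter holds 1 GAS match at -36, a motif that 8.30% of promoters hold. The promoter of Pf4 holds 1 match to the PU.1 motif GAGGAAGT at -10 (3.20% of promoters). Neither these 3 motifs nor the lysosomal element TCACGTGA (0.974% of promoters) was found in the windows of Lyz2, Gpnmb, Mrc1, Cd163 or Ms4a7. Lyve1 has no entry. A match describes the letters only.

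Per length, Lyz2 was by far the most abundant of the 9 RNAs in WT hippocampus, at 7.05 ± 0.479 RPKM (SD, n = 6), 7.66 times the next gene. Gpnmb (0.920 ± 0.166 RPKM), Pf4 (0.894 ± 0.205 RPKM), Mrc1 (0.810 ± 0.181 RPKM) and Fgl2 (0.754 ± 0.196 RPKM) followed, and each overlapped its neighbour in this order across the 6 WT mice. Cd163 was lower than Fgl2 with no overlap, at 0.378 ± 0.105 RPKM. Ms4a7 (0.278 ± 0.0948 RPKM), Cybb (0.212 ± 0.0463 RPKM) and Lyve1 (0.184 ± 0.126 RPKM) came last and overlapped their neighbours. The rarest RNAs were thinly counted. Ms4a7 averaged 15.4 counts per library and Pf4 17.9, for a counting error of 25.5% and 23.6%. Lyz2 averaged 400.6 counts, for a counting error of 5.00%.

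Lyz2, which encodes the lysozyme of macrophages and neutrophils that cleaves bacterial cell walls, was higher in both duplication genotypes. The Dp16_2xIFNRs libraries held 17.9, 14.99, 16.7, 12.4 and 12.5 CPM (counts per M of the scaled library size). The Dp16 libraries held 9.81 CPM at the lowest, 14.2 at the median and 17.4 at the highest, and the WT libraries 8.63, 9.21 and 10.04 CPM. Every Dp16_2xIFNRs library and 5 of 6 Dp16 libraries lay above the highest WT library, and the exception, Dp16 replicate 6, was low in choroid plexus. The WT mice were tight, with a coefficient of variation of 5.26%, while Dp16_2xIFNRs and Dp16 mice varied by 16.6% and 19.7%.

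In averages, Lyz2 reached 14.9 ± 2.48 CPM in Dp16_2xIFNRs mice (SD, n = 5) and 14.1 ± 2.77 CPM in Dp16 mice (n = 6), against 9.26 ± 0.487 CPM in WT mice (n = 6). Its log2 fold change was 0.68 in Dp16_2xIFNRs and 0.60 in Dp16 against WT. Lyz2, Cybb, Fgl2 and Gpnmb were chosen on these differences, so their values against WT are a description with no test.

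Cybb encodes the catalytic, membrane-bound subunit of the phagocyte NADPH oxidase, which makes superoxide. It had 1.97, 2.17, 2.54, 1.68 and 1.35 CPM in Dp16_2xIFNRs mice. In Dp16 mice it had 1.03 CPM at the lowest, 1.28 at the median and 1.92 at the highest, and in WT mice 0.767, 0.995 and 1.37 CPM. Of the Dp16_2xIFNRs libraries 4 of 5 lay above every WT library, and of the Dp16 libraries 2 of 6, so the Dp16 and WT ranges largely overlapped. The log2 fold change against WT was 0.94 in Dp16_2xIFNRs and 0.48 in Dp16.

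Fgl2 encodes a fibrinogen-like protein with prothrombinase and immunoregulatory activity. It had 7.70, 5.35, 3.90, 4.92 and 5.39 CPM in Dp16_2xIFNRs mice, all above the highest WT library. Its lowest, median and highest values were 3.49, 4.202 and 5.83 CPM in Dp16 mice, against 2.05, 2.81 and 3.70 CPM in WT mice. Only the lowest Dp16 library fell within the WT range. The log2 fold change against WT was 0.90 in Dp16_2xIFNRs and 0.65 in Dp16.

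Gpnmb encodes a transmembrane glycoprotein that phagocytes make under lysosomal load. It was the most even of the 9 genes among Dp16_2xIFNRs mice, at 6.34, 6.74, 7.08, 6.04 and 6.51 CPM. In Dp16 mice its lowest, median and highest values were 4.25, 6.00 and 7.53 CPM, against 3.08, 4.11 and 5.17 CPM in WT mice. All Dp16_2xIFNRs libraries and 5 of 6 Dp16 libraries lay above the WT range. The log2 fold change against WT was 0.65 in Dp16_2xIFNRs and 0.53 in Dp16. As in Lyz2, the Dp16 library inside the WT range was replicate 6.

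Lyz2, Fgl2 and Gpnmb thus had no overlap between Dp16_2xIFNRs and WT, which 1.2% of all tested genes also had in that direction. Between Dp16 and WT no member was free of overlap (0.716% of tested genes), and likewise with both duplication genotypes together (0.443%). Since these contrasts chose the genes, nothing is read from those counts. Over the mean of both duplication genotypes against WT, the log2 fold changes were 0.64 for Lyz2, 0.71 for Cybb, 0.77 for Fgl2 and 0.59 for Gpnmb.

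**Figure D1:**
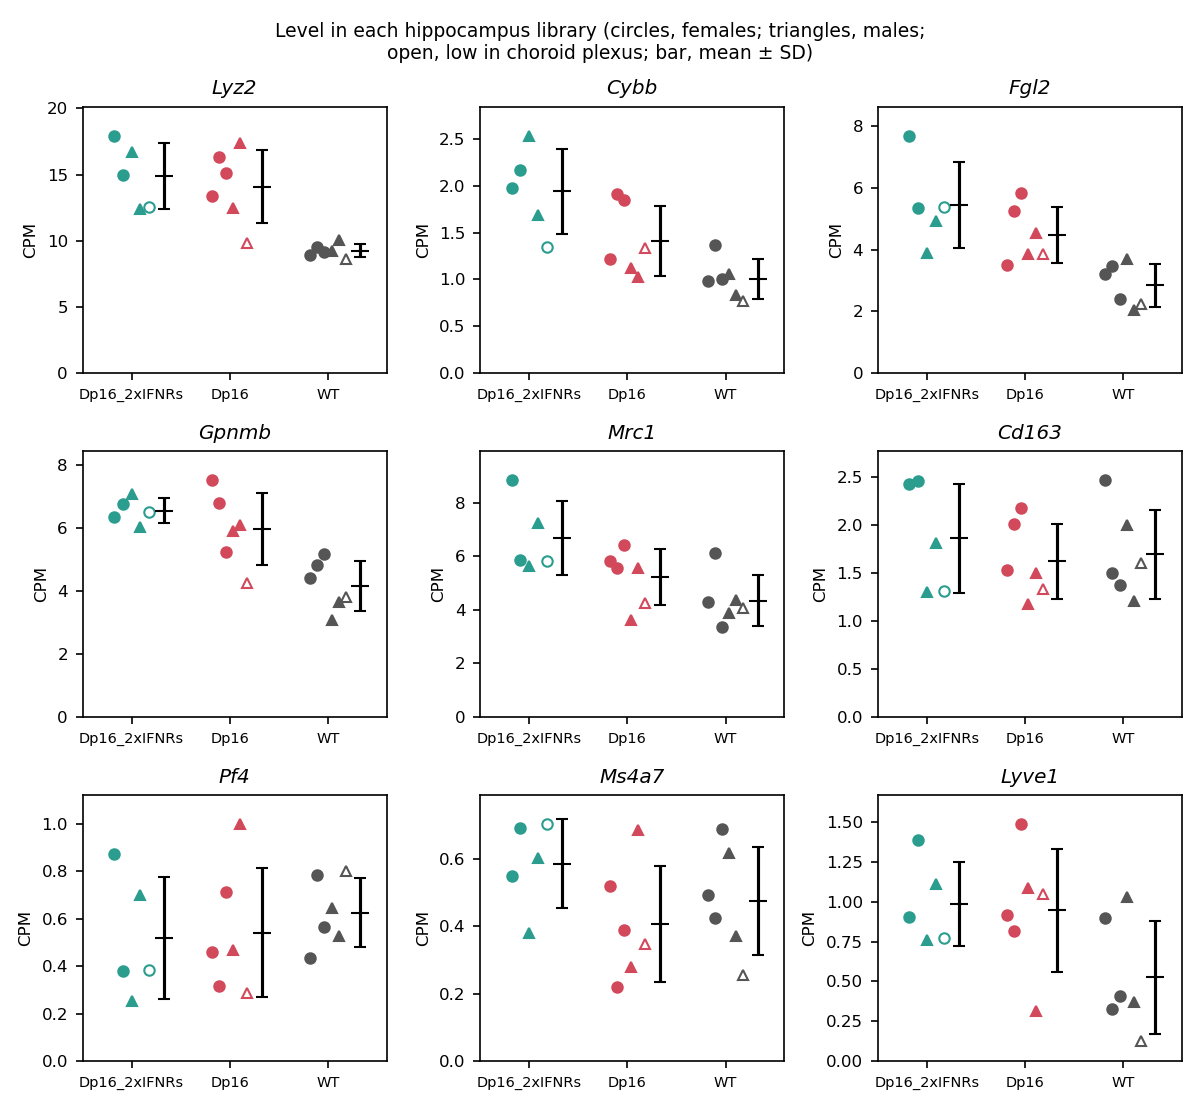
Level of each of the 9 genes in each of the 17 hippocampus libraries (CPM, linear axes from 0), by genotype, with the mean and SD beside the points; circles are females, triangles males, and open points the 3 libraries low in choroid plexus. Lyz2, Fgl2 and Gpnmb lie above every WT library in all 5 Dp16_2xIFNRs mice, whereas Cd163 lies within the WT range in all 5, and Pf4 below it in 3 of 5 and above it in 1.

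The border macrophage markers did not move as a block. By edgeR's quasi-likelihood test, adjusted by Benjamini-Hochberg over all 18983 genes, 0 of 5 passed an adjusted p of 0.05 in Dp16_2xIFNRs against WT, where 0.98% of tested genes did. Mrc1 and Lyve1 were under 0.05 without adjustment, as were 17% of tested genes. In Dp16 against WT, 0 of 5 passed, against 0.537% of tested genes, and 0 were under 0.05 unadjusted (9.58%). With both duplication genotypes together 0 of 5 passed (1.04% of tested genes), and Mrc1 and Lyve1 were under 0.05 unadjusted (14.6%). By DESeq2, 1 marker, Mrc1, passed in Dp16_2xIFNRs against WT, and 0 in the other 2 comparisons.

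Mrc1 encodes the macrophage mannose receptor CD206, which takes up glycoproteins. It had 8.86, 5.86, 5.62, 7.24 and 5.84 CPM in Dp16_2xIFNRs mice, and its lowest, median and highest values were 3.63, 5.56 and 6.42 CPM in Dp16 mice and 3.35, 4.18 and 6.13 CPM in WT mice. Dp16_2xIFNRs and WT overlapped through 1 WT library, replicate 2, since the other WT libraries reached no higher than 4.35 CPM. The log2 fold change in Dp16_2xIFNRs against WT was 0.60 ± 0.16 (SE; edgeR adjusted p = 0.0793). Without WT replicate 2 it was 0.71 with an edgeR adjusted p of 0.0333. DESeq2 gave an adjusted p of 0.0154, and edgeR with no filter on low counts 0.0331. In Dp16 against WT the log2 fold change was 0.25 ± 0.15 (SE; edgeR adjusted p = 0.633).

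Lyve1, the hyaluronan receptor of lymphatic endothelium and of perivascular macrophages, had the largest spread of the 9 genes among mice of one genotype and sex. It had 0.905, 1.39, 0.762, 1.11 and 0.770 CPM in Dp16_2xIFNRs mice, and 0.313, 0.983 and 1.49 CPM at the lowest, median and highest in Dp16 mice. In WT mice these were 0.128, 0.390 and 1.03 CPM, so the groups overlapped, and the coefficient of variation in WT was 67.2%. The log2 fold change against WT was 0.87 ± 0.41 in Dp16_2xIFNRs and 0.82 ± 0.39 in Dp16 (SE; edgeR adjusted p = 0.286 and 0.524).

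Cd163, the scavenger receptor for haemoglobin bound to haptoglobin, averaged 1.86 ± 0.567 CPM in Dp16_2xIFNRs mice (SD, n = 5) and 1.62 ± 0.388 CPM in Dp16 mice (n = 6), against 1.69 ± 0.464 CPM in WT mice (n = 6). Its log2 fold change was 0.09 in Dp16_2xIFNRs, with a 95% interval of -0.35 to 0.53, and -0.08 in Dp16, with an interval of -0.50 to 0.34. Pf4, the chemokine CXCL4, averaged 0.518 ± 0.258 CPM in Dp16_2xIFNRs mice and 0.540 ± 0.272 CPM in Dp16 mice, against 0.625 ± 0.145 CPM in WT mice. Of the Dp16_2xIFNRs libraries 3 of 5 lay below every WT library and 1 above, and of the Dp16 libraries 2 of 6 lay below and 1 above. The intervals of its log2 fold change ran from -1.01 to 0.49 in Dp16_2xIFNRs and from -0.92 to 0.50 in Dp16.

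Ms4a7, a membrane protein of the MS4A family, averaged 0.587 ± 0.132 CPM in Dp16_2xIFNRs mice and 0.408 ± 0.171 CPM in Dp16 mice, against 0.475 ± 0.160 CPM in WT mice. Its log2 fold change was 0.28 in Dp16_2xIFNRs (95% interval -0.36 to 0.92) and -0.21 in Dp16 (-0.85 to 0.42). The intervals of Cd163, Pf4 and Ms4a7 all include no change.

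The direct comparison of Dp16_2xIFNRs with Dp16 was not itself used in choosing the genes. It asks whether the members differ with interferon receptor dosage on the same duplication. Lyz2, Cybb, Fgl2 and Gpnmb were chosen on these same libraries against WT, so their values and counts here are not independent of that choice. Of the 9 members 8 had a positive log2 fold change (47.9% of all tested genes), with a median of 0.17. By edgeR 0 of 9 passed the adjusted threshold, which 0.0158% of tested genes did. At an unadjusted p under 0.05 there were 2, Cybb and Mrc1 (10.5% of tested genes), and by DESeq2 0 of 9 passed. No member was lower in Dp16_2xIFNRs mice beyond the spread between mice.

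Cybb was higher in Dp16_2xIFNRs mice by a log2 fold change of 0.46, with a 95% interval of 0.04 to 0.88 (edgeR adjusted p = 0.452), and 3 of 5 libraries lay above every Dp16 library. For Mrc1 the difference was 0.35, with an interval of 0.02 to 0.68 (edgeR adjusted p = 0.463), and 2 of 5 libraries lay above every Dp16 library. Neither passed the adjusted threshold. The intervals were -0.19 to 0.34 for Lyz2, -0.11 to 0.61 for Fgl2 and -0.14 to 0.38 for Gpnmb. They were wider for Cd163 (-0.27 to 0.61), Ms4a7 (-0.16 to 1.15), Pf4 (-0.81 to 0.71) and Lyve1 (-0.77 to 0.87). The interval of every member but Cybb and Mrc1 includes no change. Those of Pf4 and Lyve1 leave room for moderate differences in either direction.

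**Figure D2:**
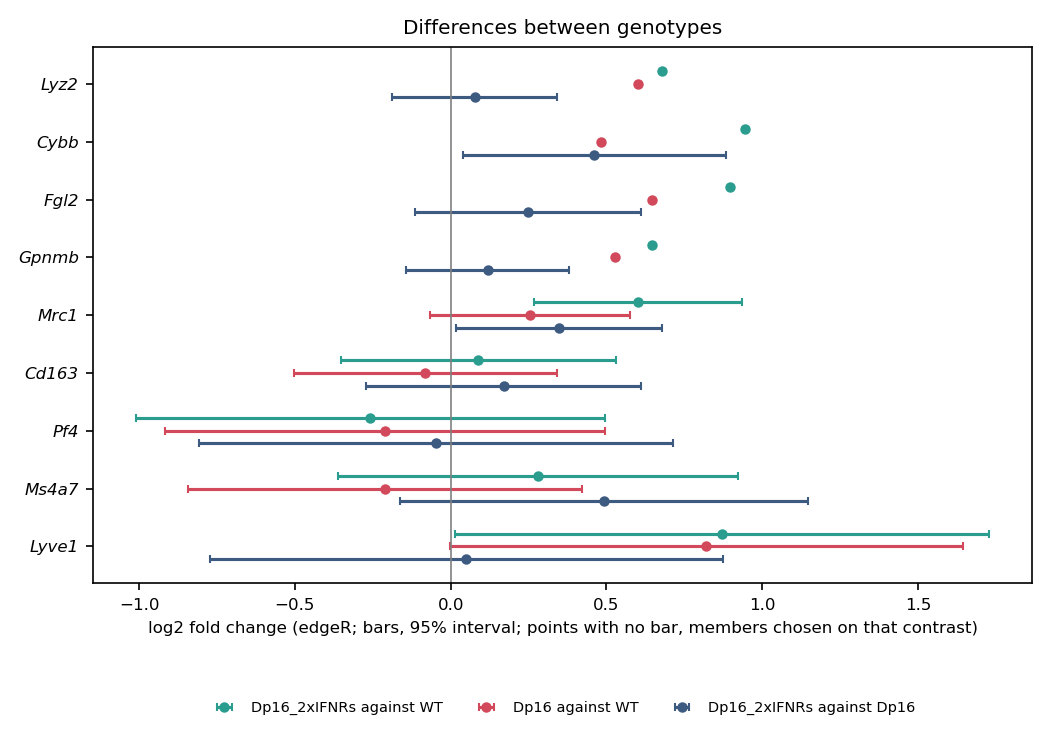
Log2 fold change (edgeR) of each gene in Dp16_2xIFNRs against WT, Dp16 against WT and Dp16_2xIFNRs against Dp16, with 95% intervals; points without a bar are the genes chosen on that contrast. Lyz2 and Gpnmb have similar values in both duplication genotypes, and the interval of the direct comparison lies above 0 for Cybb (0.04 to 0.88) and Mrc1 (0.02 to 0.68), with neither passing the adjusted threshold.

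Between sexes none of the members passed the test. Males were lower than females in 8 of 9 genes, where 50.7% of all tested genes were higher in males. By edgeR 0 of 9 passed the adjusted threshold (0.0685% of tested genes), by DESeq2 0, and 1, Gpnmb, was under 0.05 unadjusted (3.26% of tested genes). The log2 fold change of males against females was -0.25 for Gpnmb (edgeR adjusted p = 1.0), -0.35 for Cd163, -0.29 for Fgl2 and -0.23 for Mrc1. Cybb, on the X chromosome, was at -0.23, and Lyz2 at -0.08. With a replicate block, in which only Dp16_2xIFNRs mice differ in sex from mice of the same number, Lyz2 was at 0.29, Cybb at 0.17, Gpnmb at -0.013, Mrc1 at -0.0056 and Cd163 at -0.21. On log2 of RPKM plus 1, Cd163 was at -0.095, Gpnmb at -0.13 and Cybb at -0.046. The effect of the duplication did not differ detectably between males and females, with 0 of 9 members called in the interaction (0% of tested genes), 0 under 0.05 unadjusted (3.01% of tested genes) and 0 by DESeq2.

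The neighbours of these genes in the same cells and pathways were read from 14 lists, whose counts and medians describe them. Of 17 homeostatic microglia genes tested, 0 rose and 1 fell in Dp16_2xIFNRs against WT, as did 0.637% and 0.342% of all tested genes. Their median log2 fold change was -0.17, against 0.00 over all genes. The one that fell was Adgrg1, an adhesion receptor of microglia and neural precursors, at -0.31 (edgeR adjusted p = 0.00254). In Dp16 against WT 0 of 17 passed (0.537% of tested genes) and the median was -0.08. At an unadjusted p under 0.05, 6 of 17 were lower and 0 higher in Dp16_2xIFNRs (8.6% and 8.44% of tested genes), and 4 were lower and 1 higher in Dp16 (3.97% and 5.61% of tested genes). The summed level of the list was 523 to 627 CPM in Dp16_2xIFNRs, 551 to 633 CPM in Dp16 and 547 to 690 CPM in WT, and the groups overlapped.

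Over all tested genes, 0.637% rose past the adjusted threshold in Dp16_2xIFNRs against WT and 0.458% in Dp16 against WT. Of 16 pan-myeloid genes 1 rose and 0 fell, the same gene in both genotypes. It was Lcp1, which encodes the actin-bundling protein L-plastin of blood-derived cells, at a log2 fold change of 0.34 in Dp16_2xIFNRs and 0.32 in Dp16 (edgeR adjusted p = 0.0137 and 0.0224). Of 19 other lysosome genes tested, 1 rose and 0 fell. It was Hexa, a subunit of the lysosomal enzyme hexosaminidase A, at 0.24 in Dp16_2xIFNRs and 0.20 in Dp16 (edgeR adjusted p = 0.00490 and 0.0210). The medians of the lysosome list were -0.03 and -0.02 in the 2 genotypes, close to all genes.

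Cybb works in a complex of several subunits. Of 10 other NADPH oxidase genes tested, 0 passed the test in either genotype, and 0 were under 0.05 unadjusted. Cyba, the partner of Cybb in the membrane, had a log2 fold change of 0.11 in Dp16_2xIFNRs and 0.13 in Dp16 against WT (edgeR adjusted p = 0.688 and 0.759). Ncf1, the cytosolic organiser, was at -0.08 and 0.16, and Rac1, the GTPase of the complex, at -0.05 and 0.04. Of 19 activated or lipid-handling phagocyte genes, the company in which Gpnmb is usually found, 0 passed by edgeR in either genotype, with medians of -0.03 and 0.00, and 5 were under 0.05 unadjusted in each (17% and 9.58% of tested genes). Ctsd and Ctsb, lysosomal proteases, were at -0.03 and -0.04 in Dp16_2xIFNRs. Apoe, which carries lipid between brain cells, was at -0.25 in Dp16_2xIFNRs (edgeR adjusted p = 0.160) and -0.15 in Dp16.

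Of 12 further border macrophage genes tested, out of 17 listed, 0 passed by edgeR in either genotype. Their median log2 fold change was 0.44 in Dp16_2xIFNRs and 0.04 in Dp16 against WT. At an unadjusted p under 0.05, 4 of 12 were higher and 1 lower in Dp16_2xIFNRs (8.44% and 8.6% of tested genes). In Dp16, 1 was higher and 1 lower (5.61% and 3.97% of tested genes). The members with the highest level per length were Cd38, which degrades NAD, at 0.21 in Dp16_2xIFNRs, the iron exporter Slc40a1 at -0.23 and the prostaglandin-degrading Hpgd at -0.31, none of which passed. The summed level of the list was 69.4 to 82.4 CPM in Dp16_2xIFNRs mice and 58.6 to 79.0 CPM in Dp16 mice, against 63.4 to 67.4 CPM in WT mice. By this sum all Dp16_2xIFNRs libraries lay above the WT range, as was so for 1.2% of single tested genes. The Dp16 libraries spread to both sides of it. By the mean log2 CPM of the list, Dp16_2xIFNRs and WT overlapped, with Dp16_2xIFNRs replicate 4 at 1.37 and WT replicate 4 at 1.38.

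Fibroblasts of the meninges and vessels make the tissue in which border macrophages sit. All 16 of their markers had a positive log2 fold change in Dp16_2xIFNRs against WT (51.1% of all tested genes), with a median of 0.57. Of the 16, 11 were higher at an unadjusted p under 0.05 (8.44% of tested genes), though 0 passed the adjusted threshold by edgeR. Dcn, the matrix proteoglycan decorin, was at 0.59 (edgeR adjusted p = 0.115), the secreted protein gene Islr at 0.55 and the calcification inhibitor Mgp at 0.48. In Dp16 against WT the median was 0.23 and 4 of 16 were higher at an unadjusted p under 0.05 (5.61% of tested genes). The summed level was 186 to 297 CPM in Dp16_2xIFNRs mice and 131 to 271 CPM in Dp16 mice, against 147 to 195 CPM in WT mice. In Dp16_2xIFNRs and in Dp16 the lowest library was the one low in choroid plexus. No gene of this list was at 0 in all libraries.

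With the mean level of the fibroblast genes as a covariate, an alternative chosen after seeing the data, the log2 fold change of Lyz2 in Dp16_2xIFNRs against WT was 0.39 in place of 0.68, and 0.49 in place of 0.60 in Dp16. That of Mrc1 in Dp16_2xIFNRs was 0.36 in place of 0.60. Gpnmb moved little, to 0.62 in Dp16_2xIFNRs and 0.52 in Dp16, while Cybb was 0.76 and 0.42 and Fgl2 0.72 and 0.58. The part of this tissue in the differences was not tested further. With the mean level of the 5 border markers as a covariate, Lyz2 was 0.65 and Gpnmb 0.76 in Dp16_2xIFNRs, and Fgl2 0.65 in place of 0.90.

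**Figure D3:**
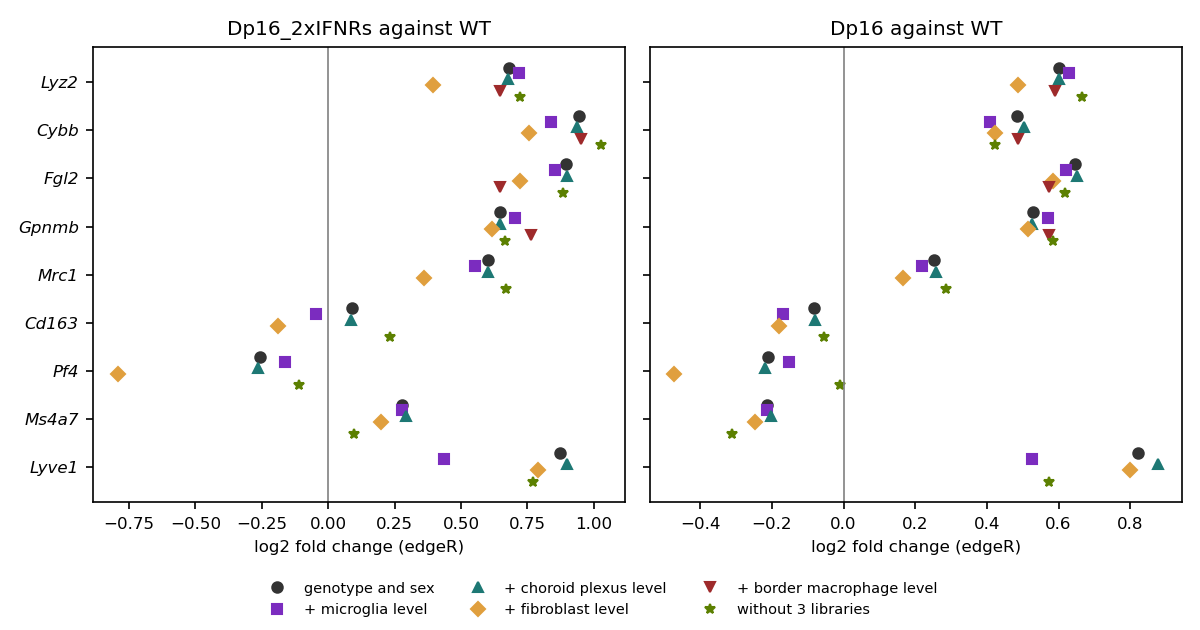
Log2 fold change (edgeR) of each gene against WT with genotype and sex alone, with 1 marker level added as a covariate, and without the 3 libraries low in choroid plexus; the level of the border markers was added only for the 4 other genes. The fibroblast level lowers Lyz2 to 0.39 and Mrc1 to 0.36 in Dp16_2xIFNRs, and Gpnmb stays at 0.62.

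Without the 3 libraries low in choroid plexus, Lyz2 was at 0.72 in Dp16_2xIFNRs and 0.67 in Dp16, Cybb at 1.03 and 0.42, Fgl2 at 0.89 and 0.62, and Gpnmb at 0.66 and 0.59. These members were therefore about as far from WT without the libraries as with them. Of 15 choroid plexus genes, such as Ttr, Kl and Clic6, 0 were called by edgeR in either genotype and 0 were under 0.05 unadjusted, with medians of -0.06 in Dp16_2xIFNRs and -0.37 in Dp16.

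Of the remaining lists, 0 genes passed by edgeR in either genotype. These lists held 10 monocyte and neutrophil genes, 11 dendritic and antigen-presenting genes, 6 lymphocyte genes, 5 erythroid genes, 15 endothelial and mural genes and 29 interferon-stimulated genes. Their medians in Dp16_2xIFNRs and in Dp16 against WT were 0.49 and 0.32 for monocyte and neutrophil genes, led by level by Ace, Csf3r and Vcan. The summed level of that list was 40.7 to 48.8 CPM in the libraries low in choroid plexus and at least 96.2 CPM in every other. That sum therefore does not stand for monocytes and neutrophils alone. The medians were 0.55 and 0.33 for antigen-presenting genes, led by Cd74, H2-Aa and H2-DMa. For lymphocyte genes, with Ighm, Igkc and Trac, they were 0.36 and 0.15. Erythroid genes, led by the globins Hbb-bs, Hba-a1 and Hbb-bt, were at 0.00 and 0.35. Endothelial and mural genes, led by Rgs5, Cldn5 and Ly6c1, were at 0.0042 and -0.0047. Interferon-stimulated genes, led by B2m, Ifi27 and Bst2, were at 0.24 and 0.21 with 28 of 29 positive in each genotype, as were 51.1% and 48.1% of all tested genes. At an unadjusted p under 0.05, in Dp16_2xIFNRs and in Dp16, there were 3 and 2 monocyte and neutrophil genes, 5 and 2 antigen-presenting genes, 0 and 1 lymphocyte genes and 0 and 1 erythroid genes. There were likewise 11 and 8 interferon-stimulated genes, and 0 endothelial and mural genes in both. All of these genes were higher than in WT. Over all tested genes, 8.44% were higher at that p in Dp16_2xIFNRs and 5.61% in Dp16, and 17% and 9.58% differed in either direction. In the summed levels the antigen-presenting genes stood at 47.9 to 78.6 CPM in Dp16_2xIFNRs mice and 38.9 to 60.4 CPM in Dp16 mice, against 32.0 to 54.1 CPM in WT mice. The lowest library of each genotype was the one low in choroid plexus. The next lowest were at 61.6, 48.8 and 42.0 CPM in Dp16_2xIFNRs, Dp16 and WT.

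**Figure D4:**
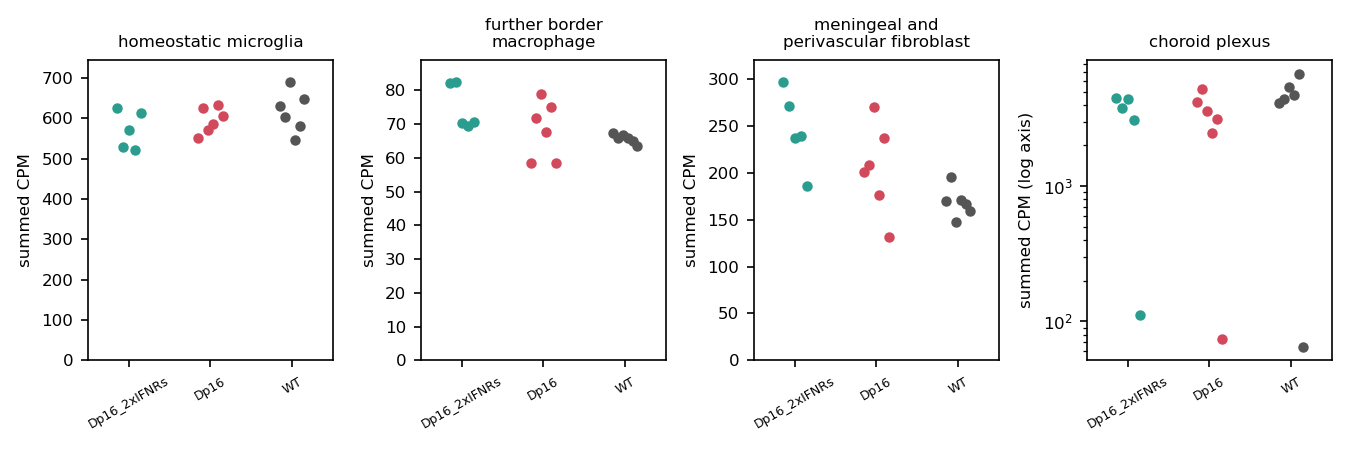
Summed CPM of 4 marker lists in each library by genotype, on linear axes from 0 except for choroid plexus, which has a log axis. Further border macrophage and fibroblast genes reach higher in Dp16_2xIFNRs mice (69.4 to 82.4 CPM and 186 to 297 CPM) than in WT mice (63.4 to 67.4 CPM and 147 to 195 CPM), microglia genes overlap, and 1 library of each genotype is low in choroid plexus.

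Within a genotype and sex, no pair of the 9 genes had a correlation that passed the test from mouse to mouse. After removing the genotype and sex means from log2 CPM, 36 pairs of members were compared over 17 mice by a permutation test, and 0 passed after Benjamini-Hochberg adjustment. The median Pearson r was 0.23. Before adjustment 4 pairs were under 0.05. Fgl2 followed Cd163 (r = 0.64, Spearman rho = 0.57, permutation p = 0.00544, adjusted 0.115), and r was 0.51 without the 2 mice farthest out. Mrc1 followed Pf4 (r = 0.63, rho = 0.68, permutation p = 0.00637, adjusted 0.115), with 0.70 without 2 mice. Fgl2 and Gpnmb ran against each other (r = -0.56, rho = -0.48, adjusted permutation p = 0.240), as did Gpnmb and Lyve1 (r = -0.50, rho = -0.43, adjusted permutation p = 0.374). Lyz2 and Cybb had r = 0.32 (rho = 0.35, adjusted permutation p = 0.455), and 0.68 (adjusted 0.0986) without Dp16 replicates 5 and 6. Without the same mice r of Lyz2 and Gpnmb was -0.07, in place of 0.31.

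Among the pairs of a member and a marker list, the highest correlation was that of Lyz2 with the fibroblast genes. Over 17 mice r was 0.82 with the mean level of the fibroblast list (rho = 0.78, adjusted permutation p = 0.00392 over 49 pairs of a member and a list). It was 0.70 with the further border macrophage list (rho = 0.73, adjusted permutation p = 0.0467). Without the 2 mice farthest out, Dp16 replicate 6 and Dp16_2xIFNRs replicate 5, r with the fibroblast list was 0.64, and with the border list, without Dp16 replicate 6 and WT replicate 4, it was also 0.64. Over these 15 mice the adjusted permutation p was 0.230 for both, so neither passed. The values come from the same libraries and share their scaling. The permutations shuffled 17 residuals that keep only 13 degrees of freedom, so their p-values run too low. An adjusted permutation p of 0.0467 is therefore not firm. Mrc1 also leaned towards the fibroblast list (r = 0.59, rho = 0.60, adjusted permutation p = 0.109), and for Gpnmb r was 0.10. Fgl2 had r = 0.68 with the mean of the 5 border markers (adjusted permutation p = 0.0467). By rank it did not pass (rho = 0.63, adjusted permutation p = 0.0968). Without WT replicate 4 and Dp16_2xIFNRs replicate 4, r was 0.57 (adjusted permutation p = 0.230).

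**Figure D5:**
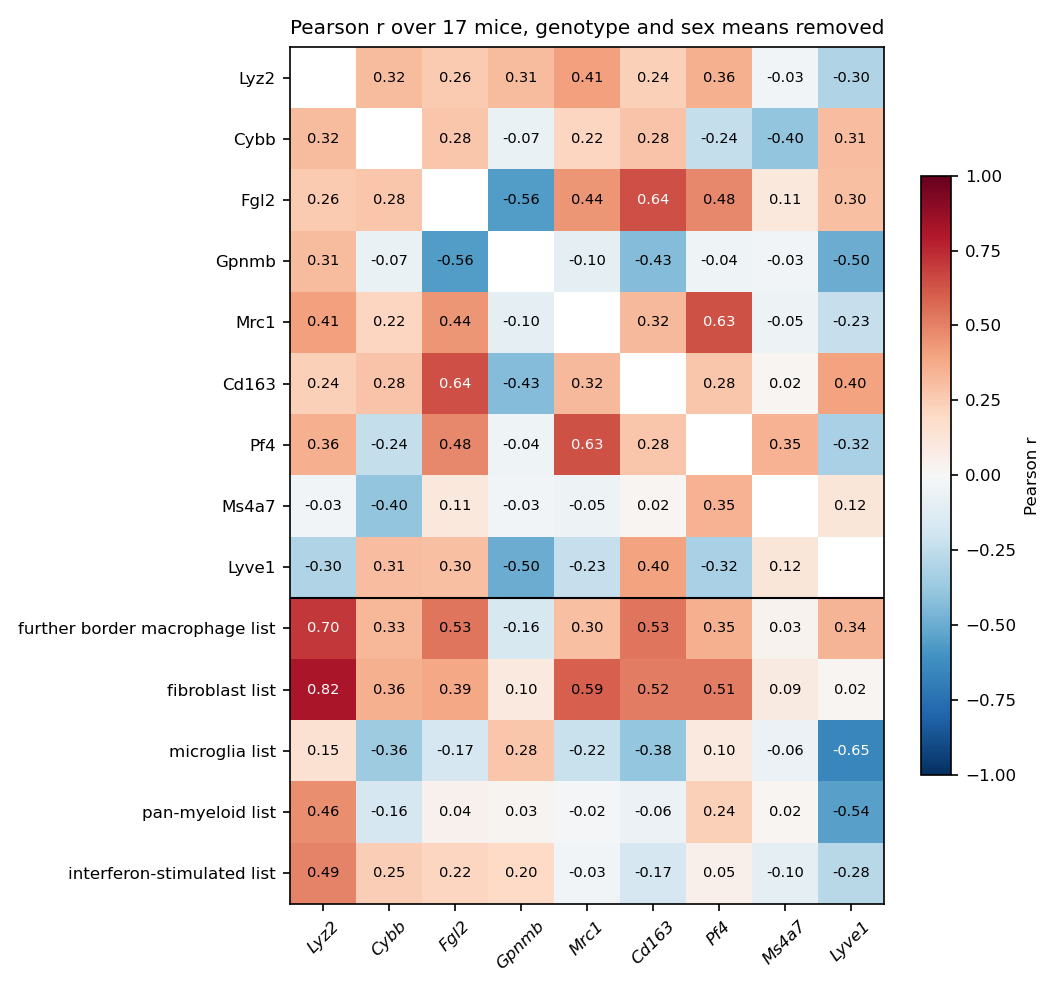
Pearson r of log2 CPM over 17 mice after removing genotype and sex means, between the 9 genes (top block) and between each gene and the mean level of 5 marker lists (bottom block). The strongest value is that of Lyz2 with the fibroblast list (0.82), and the 4 genes chosen for being higher reach at most 0.32 with each other over 17 mice.

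Likeness in pattern was read by Pearson r of the same residuals over 17 mice. Only genes of at least 1 CPM entered, 15615 for each member, which left out Pf4, Ms4a7 and Lyve1. The 5 nearest genes of each of Lyz2, Cybb, Fgl2, Gpnmb and Mrc1 held no other member. For Lyz2 they included Bmp4 (0.91), Tmem176b (0.89), Pnp (0.87) and Gstt3 (0.86), and Mrc1 was the nearest of the 5 other members examined, at rank 2061. For Cybb they were Tep1 (0.83), Atpsckmt (0.83), Ttll8 (0.83), Dpp7 (0.81) and Usp16 (0.81). Fgl2 was nearest to Ptger4 (0.86), Osbpl9 (0.85), Fzd10os (0.84), Slc35b1 (0.80) and Spp1 (0.79), and Cd163 stood at rank 83. For Gpnmb they were Ccn4 (0.89), Rph3al (0.85), Chsy1 (0.83), Gk5 (0.83) and Cwc22 (0.81). The genes nearest to Mrc1 included 1 predicted gene, Npas4 (0.84), Fuz (0.82) and Omd (0.82). These are the highest values of a large search over few mice and are given without a test.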

How the data were processed

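Per the labels' protocols, polyadenylated RNA was made into strand-specific libraries and read as pairs of 150 bases. The submitters' processing notes name HISAT2 2.1.0 and HTSeq 0.6.1, beside SAMtools 1.5, FastQC 0.11.5 and bcl2fastq, and the build GRCm38. Raw counts for each gene and, separately, RPKM were deposited by the authors for the same 17 libraries. The strand setting of counting is not given in the sources used here. Gene positions are from GENCODE M21, on the same build.

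Counts were fitted in R 4.3.3 with edgeR 4.0.16: filterByExpr with a minimum count of 10, TMM, and a quasi-likelihood model of genotype and sex over all 17 libraries (13 residual degrees of freedom), adjusted by Benjamini-Hochberg over 18983 genes, threshold 0.05. The steps were tested on simulated data. Alternatives were DESeq2 1.42.0, limma 3.58.1 (voom, and trend on log2 of RPKM plus 0.1 or 1), no filter, other scalings and covariates, a replicate block and leaving out each library. Correlations used 100000 permutations of the residuals, with no allowance for the genotype and sex means removed from them, so their p-values run too low. Intervals of log2 fold changes come from the edgeR fit and include the spread between mice, while the counting errors given in percent cover counting error only. The p-values of the fits set a difference between groups against the spread between these mice. Permutation p-values set an r against the values from shuffled mice.

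The members and lists were chosen with earlier results of these data known. All 9 members were named. From each list the members called in any comparison were named, up to 4, and otherwise the 3 of highest mean RPKM. The 5 genes of highest r were taken for 5 members, and some of these are not reported here. The 14 lists were those of the report and the 5 border markers were kept apart from them. Calls over 18983 genes in each comparison with WT are the percentages given beside the counts.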

Additional observations from a re-analysis of the deposited data

Results flagged for a closer look

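The level of Mrc1 in WT replicate 2 stood apart from the other 5 WT mice, at 6.13 CPM, with the next at 4.35 CPM and the lowest at 3.35 CPM. It is the 1 library flagged among 27 groups examined (9 genes in 3 genotypes), and chance flags about 1 in 20 such groups. Leaving it out brings Mrc1 in Dp16_2xIFNRs against WT past the threshold (edgeR adjusted p = 0.0333, against 0.0793 with it).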

How the results depend on the processing

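The number of border markers called in Dp16_2xIFNRs against WT was 0, and it became 1, Mrc1, at a threshold of 0.1, with DESeq2, with no filter on low counts, and between 0 and 1 over the fits that leave out each library (1 without WT replicate 2). It stayed at 0 in the other comparisons with WT and under the other alternatives that were run, as did the counts of members called between Dp16_2xIFNRs and Dp16, between sexes and in the interaction. Values near 0 changed sign. In Dp16_2xIFNRs against WT, Cd163 was -0.046 with the microglia level and -0.19 with the fibroblast level as a covariate, and ran from -0.0051 to 0.21 over left-out libraries. In Dp16 against WT it ran from -0.17 to 0.022. In Dp16_2xIFNRs against Dp16, Lyve1 was -0.090 with the microglia level and -0.010 with the fibroblast level, and ran from -0.12 to 0.22. There Lyz2 was -0.093 and Cd163 -0.0086 with the fibroblast level, Lyz2 ran from -0.0020 to 0.16 and Pf4 from -0.33 to 0.21. Mice with the same replicate number were no more alike than others (mean correlation -0.0155 over 16 same-numbered pairs, 0.00479 over others). With a replicate block the counts of members and markers called stayed at 0, 143 in place of 186 genes were called in Dp16_2xIFNRs against WT, and in males against females Lyz2 turned to 0.29 (0.015 with the fibroblast level as a covariate) and Cybb to 0.17, with Gpnmb at -0.013 and Mrc1 at -0.0056. Mice sharing the second part of the identifier were no more alike either (mean correlation -0.0946 over 5 pairs, 0.00668 over others). The 5 pairs ran from -0.387 to 0.269, too few and too spread to show whether they share a litter or batch. As a random block in limma-voom the identifier part left the counts of members and markers called at 0. The cause of these changes was not tested. Over all alternatives the genes called ran from 81 to 214 (102 as reported) in Dp16 against WT, 101 to 632 (186) in Dp16_2xIFNRs against WT, 137 to 501 (197) for both together, 3 to 14 (3) between Dp16_2xIFNRs and Dp16, 7 to 20 (13) between sexes and 0 to 35 (0) in the interaction. Adding 1 to RPKM lowered the log2 fold changes of the scarce genes, with Cybb at 0.22 in Dp16_2xIFNRs and 0.09 in Dp16 and Lyve1 at 0.18 and 0.16. Pf4, Ms4a7 and Lyve1 averaged 17.9, 15.4 and 25.8 counts per library, which limits their precision.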
